A study of Mus musculus with 4 samples.

Results

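Among the non-control probes of the arrays, 16194 carry a genomic interval of the mouse build mm9 as their target name in place of a transcript accession. They were selected as probes whose target name begins with a chromosome and holds a start and an end, and they make up 4610 of the 37890 target names and 16194 of the 55681 probes. Each was printed as 1 spot per array, and 3 were dropped because their spot was an outlier on an array, which left 16191. The intervals run from 62 to 7128487 bases with a median of 10676, and each holds 1 to 10 probes with a median of 3. A closing letter F marks 2318 of them and R marks 2289. These letters are read here as forward and reverse strand, which the files do not define, and 3 intervals with 13 probes carry no letter. The files pair no gene and no probe sequence with these intervals, so regions are named by interval and letter, and what the mm9 annotation holds there was not analysed here.

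RNA came from lymphoid-primed multipotent progenitors (LMPP) of the bone marrow of IRF8-GFP reporter mice, an early blood-forming cell that can still give lymphoid and myeloid offspring. IRF8 is a transcription factor needed for monocyte and dendritic cell development, and GFP is the green fluorescent protein that reports it. All cells were sorted, after magnetic enrichment, as Lin(-) IL-7R(-) Sca-1(+) CD117(+) and as CD150(-) CD34(+) CD135(+), and they were then split by the reporter. The IRF8-GFP negative and the IRF8-GFP positive group have 2 arrays each (exp 1 and exp 2). Age, sex, strain, treatment and the number of animals are not in the labels. Nothing there says whether exp 1 and exp 2 were separate mice, so that p-values cover the spread of 4 arrays, part or all of which may be technical. The design addresses which RNAs go with reporter signal inside the LMPP gate.

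Long intergenic noncoding RNAs are transcripts that lie between protein-coding genes and have no long reading frame. Many are spliced and polyadenylated like messenger RNA but are made in small amounts and in few cell types, and some act on the chromatin or on the transcription of genes nearby. In blood-forming cells several are known to change with lineage choice. Whether a given interval here gives rise to such an RNA, to an extension of a gene or to an enhancer transcript cannot be read from a probe signal.

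Levels are log2 of the processed signal minus the array's 75th percentile, so that 0 is the signal of a probe at that percentile. A difference is the IRF8-GFP positive minus the IRF8-GFP negative mean. Irf8 itself was at 1.62 ± 0.027 in the negative and 5.17 ± 0.064 in the positive group (SD, n = 2 each), a difference of 3.55. Of the genes of the sorting gate, Kit, Ly6a, Cd34 and Flt3 were well above background on every array and Slamf1, which encodes CD150, on none. The difference was -0.96 for Ly6a, which encodes Sca-1, and -0.39 for Kit (CD117), whose call was lost without either negative array. It was 0.26 for Cd34 and 0.25 for Flt3 (CD135), values that turned negative under quantile normalization, cyclic loess, spike-in scaling and in the deposited matrix. Il7r RNA, whose protein the gate excludes, was at -1.57 and -1.54 in the negative and at 0.86 and 0.83 in the positive arrays. Marker lists of other cells were also measured, and in 6 of the 7 the groups did not overlap. The summed signal, in multiples of the 75th percentile, of 4 matched erythroid genes was 2.41 and 2.57 against 1.12 and 1.18, that of 3 megakaryocyte genes 3.66 and 3.79 against 1.24 and 1.26, and that of 6 B cell genes 11.0 and 10.4 against 14.0 and 13.5. It was 5.50 and 4.97 against 7.05 and 6.04 for 5 genes of stroma and endothelium and 1.56 and 0.903 against 2.32 and 1.68 for 5 genes of T and NK cells. It was 0.186 and 0.171 against 0.202 and 0.190 for 4 neutrophil genes, and 0.610 and 0.558 against 0.631 and 0.606, which overlap, for 4 macrophage genes. The B cell genes Ebf1 and Ms4a1, Cd3g, Cd8a and Ncr1 of T and NK cells, Ltf, Ngp and Mmp8 of neutrophils and Cdh5 of endothelium were above background on no array. The part of these cells in the results below was not tested, and fewer cells of a type cannot be told apart from less RNA per cell.

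Fewer coordinate probes were detected in IRF8-GFP positive than in IRF8-GFP negative LMPP. A probe counts as detected when the scanner software marks it as well above background. This held for 6960 (43.0%) and 7049 (43.5%) coordinate probes on the negative arrays, compared with 5397 (33.3%) and 5619 (34.7%) on the positive arrays. The 2 negative arrays lie above both positive arrays, with no overlap. Probes of curated coding transcripts (NM accessions) were detected more often, at 66.8% and 66.9% against 62.1% and 63.0%, and probes of curated noncoding transcripts (NR accessions) at 50.4% and 50.7% against 45.7% and 45.6%. Detection over all probes was lower on the positive arrays too, with 56.0% and 56.3% against 49.3% and 50.4%. These shares were not tested, since the smallest p that permuting 2 and 2 arrays exactly can give is 0.333. The 75th percentile signals of the negative arrays were 438 and 543, those of the positive arrays 318 and 414, and their part in the detection shares was not tested. The first negative and the second positive array, whose percentiles are closest, detected 43.0% and 34.7% of the coordinate probes, but their lowest signals well above background also differed, at 17.2 and 25.7. Those lowest signals were 17.2 and 20.4 on the negative arrays and 20.0 and 25.7 on the positive arrays, whose percentiles were lower by group. Their part in the detection shares was not tested.

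**Figure D1:**
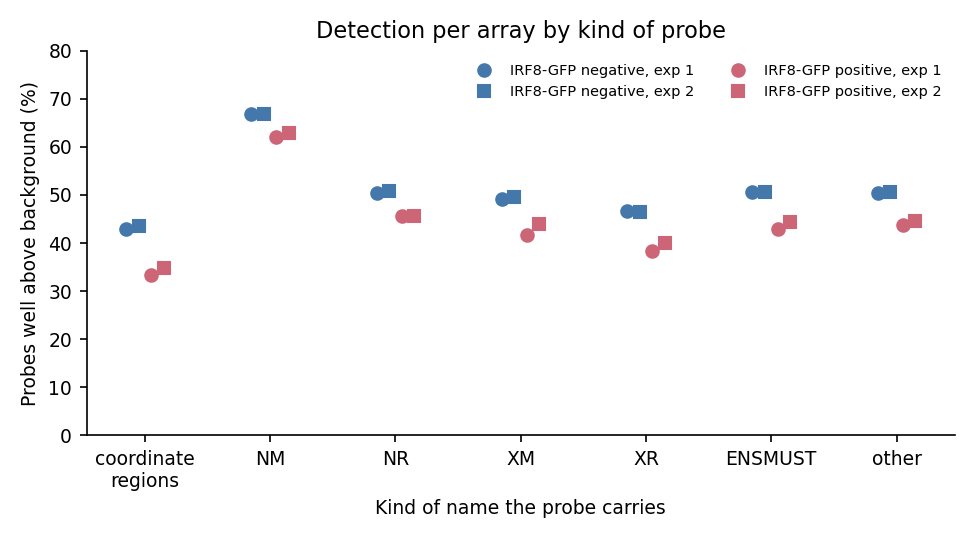
Percentage of probes well above background (vertical axis) on each of the 4 arrays, by the kind of target name (horizontal axis). Each point is 1 array, with blue for IRF8-GFP negative and red for IRF8-GFP positive LMPP. Coordinate probes lie at 33.3% to 43.5%, below the NM probes at 62.1% to 66.9%, and in each kind both blue points are above both red points.

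Detection on all 4 arrays was reached by 5056 coordinate probes (31.2%), against 61.0% of NM probes, while 8655 (53.5%) were detected on no array. Another 1010 coordinate probes (6.24%) were detected on both negative and on no positive array, and only 15 (0.0926%) on both positive and no negative array. The same shares were 4.25% and 0.110% of all probes and 3.02% and 0.121% of NM probes. By region, 3001 of the 4610 (65.1%) had a probe that was detected on both arrays of a group, and 1334 (28.9%) had no probe detected on any array. In 1098 regions (23.8%) every probe passed.

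The comparison was limited to probes detected on both arrays of at least 1 group, which 6672 coordinate probes (41.2%) and 30478 probes of all kinds were. A call is a limma adjusted p under 0.05, adjusted over all 30478. In the coordinate set 3096 probes were called (46.4%), against 57% of all probes tested. The 1223 calls higher in IRF8-GFP positive LMPP were 18.3% of the tested coordinate probes, against a background of 35%. The 1873 lower calls were 28.1%, against 22%. With a fitted difference of at least 2-fold as well, 59 were higher (0.884%, background 2.2%) and 614 lower (9.20%, background 6.11%). For 283 of the 614 no positive array was above background, so that only the floor of those arrays bounds their fold, and this bound reached 2-fold for 69 and not for 214. Counted by measured folds and bounds, 400 of the 6672 coordinate probes were at least 2-fold lower, against 632 of 17440 NM probes (3.62%), and 56 (0.839%) higher, against 2.91%. Later counts of 2-fold probes use the fitted fold unless a bound is given. The median difference was -0.01 over the tested coordinate probes, 0.14 over all tested probes and 0.19 over the NM probes.

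The balance of lower and higher calls depends on the filter. Coordinate probes detected on both negative arrays numbered 6622, those detected on both positive arrays 5106 and those detected on all 4 arrays 5056. The filter therefore admitted more probes through the negative group alone than through the positive group alone. Of the former, 1010 were detected on no positive array, and of the latter, 15 on no negative array. Not all of the 1010 had a lower scaled value in the positive group. Probes of chr2:128217275-128217972 R and chr16:59557120-59602070 R were called higher, by 0.29 and 0.43. Their positive levels lie below background and are not measured, so these calls do not show a higher level. Among the probes detected on all 4 arrays, fitted alone, 1396 coordinate probes were higher and 1410 lower, against 11443 and 5725 of all 26638 probes. With no filter 5147 coordinate probes were higher and 1824 lower, against 21396 and 6287 of all 55669 probes, and the median difference was 0.36 in both. That fit includes the 8655 coordinate probes detected on no array, whose part in the higher calls was not tested.

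These counts also move with the choice of scale. Higher calls were 39.5% of the coordinate calls as given above, 42.6% with quantile normalization, 41.1% with cyclic loess, 42.4% in the deposited matrix and 44.7% with centring on the median of the tested probes. They were 13.8% with scaling on probes detected on all arrays, 8.75% with spike-in scaling and 70.3% with normexp background correction. Of the calls of all probes, 61.4% were higher with the percentile scaling, 51.9% with quantile normalization, 48.6% with cyclic loess, 34.6% with scaling on probes detected on all arrays and 26.0% with spike-in scaling. That share was 51.7% in the deposited matrix, 65.0% with centring on the median and 73.7% with normexp, close to the 70.3% of coordinate calls. The median of all tested probes was 0.14 with the percentile scaling, and it was 0.04, 0.02, -0.10 and -0.17 with quantile normalization, cyclic loess, scaling on probes detected on all arrays and spike-in scaling. The median of the coordinate probes lay below that of all probes by 0.15 with the percentile scaling, where it was -0.01 against 0.14, but by less with cyclic loess, at -0.01 against 0.02. The share of coordinate probes 2-fold lower was above that of NM probes with quantile normalization (8.50% against 4.93%), cyclic loess (8.17% against 4.96%) and spike-in scaling (17.2% against 8.11%). With normexp, run with an offset of 50 added to each signal, it was not, at 1.35% against 1.53%. The part of the offset was not tested. Leaving out the first or the second negative array put the coordinate median at 0.0050 and -0.044, against 0.14 and 0.12 over all tested probes. Both the coordinate probes and all probes then had fewer calls of each direction.

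**Figure D2:**
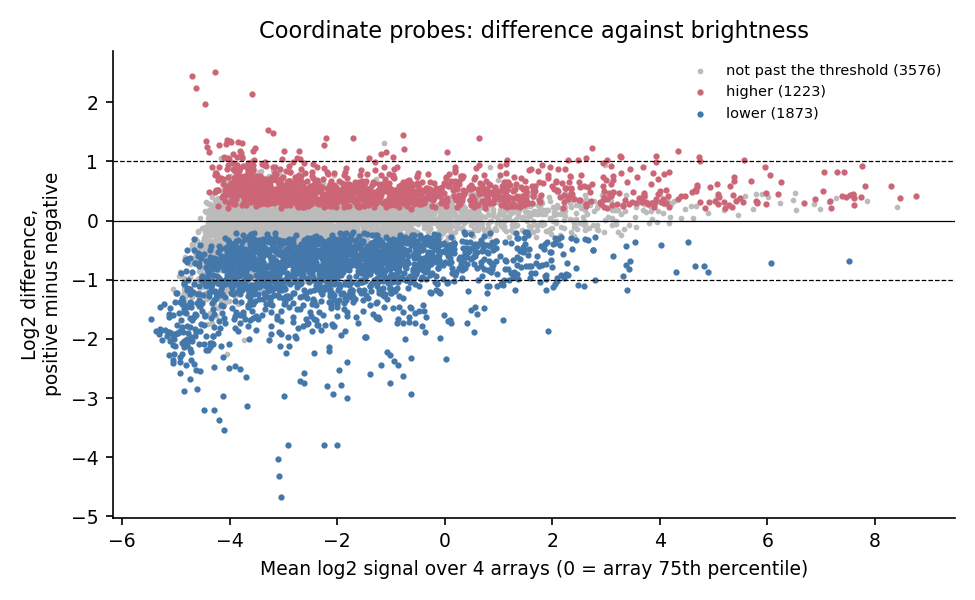
Difference of each tested coordinate probe (vertical axis, log2, positive minus negative) against its mean log2 signal over the 4 arrays (horizontal axis, 0 is the array's 75th percentile). Each point is 1 of 6672 probes, with 1223 called higher in red, 1873 called lower in blue and the rest in grey. Dashed lines mark 2-fold, beyond which far more called points lie below than above.

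Most coordinate probes are dim. Their median level was -2.47, against 0.71 for tested NM probes. Of the tested coordinate probes, 46.7% fell in the dimmest quartile of all tested probes and 4.83% in the brightest. In the dimmest quartile the share 2-fold lower by the fitted fold was 11.5% of coordinate and 12.7% of NM probes, and by measured folds and bounds 4.62% and 6.28%, so that no excess over NM probes was seen there. It was 8.98% against 6.89% in the second quartile, 5.04% against 3.01% in the third and 0.932% against 0.775% in the brightest. The share 2-fold higher was below that of NM probes in the first 3 quartiles, at 1.12%, 0.394% and 0.315% against 3.42%, 2.90% and 2.76%. In the brightest quartile it was 3.73%, from 12 probes, against 2.85%. Among the probes detected on all 4 arrays, whose fold is measured on both sides, 279 of 5056 coordinate probes (5.52%) were 2-fold lower and 36 (0.712%) higher, against 3.01% and 2.84% of NM probes.

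The share of tested probes that were lower was larger in shorter intervals. With regions in quartiles of length, 15.1% of the tested probes were 2-fold lower in regions of 62 to 1758 bases, 9.58% in those of 1761 to 10676 bases, 8.73% in those of 10699 to 25852 bases and 5.78% in the longest. Calls lower in the positive group made up 38.4%, 32.2%, 25.3% and 20.7% of tested probes in the same order, and higher calls 13.7%, 16.9%, 18.4% and 22.4%. By measured folds and bounds the shares 2-fold lower were 9.93%, 6.01%, 5.80% and 3.80%. The median difference was -0.24, -0.10, 0.04 and 0.08. Brightness was nearly the same in the 4 quartiles, with median levels of -2.52, -2.50, -2.47 and -2.41. Length also goes with how an interval is covered: intervals with probes for 1 strand letter only had a median length of 2176.5 bases and 11.2% of tested probes 2-fold lower, and those with both letters 17901 bases and 7.85%.

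**Figure D3:**
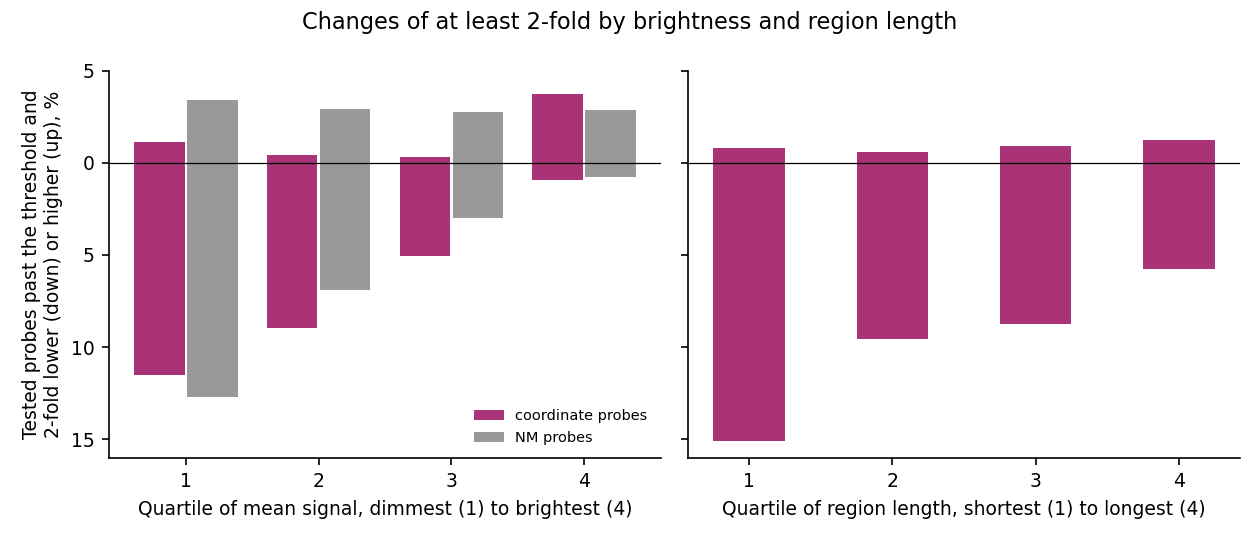
Share of tested probes past the threshold and at least 2-fold lower by the fitted fold (bars down) or higher (bars up) in IRF8-GFP positive LMPP, in percent. The left panel splits coordinate and NM probes by quartile of mean signal, and the right panel splits the coordinate probes by quartile of region length. Downward bars shrink from 11.5% to 0.932% with brightness and from 15.1% to 5.78% with length.

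Calls within a region mostly ran in 1 direction, but in most regions not every tested probe was called. There were 1044 regions with 3 or more tested probes, 4073 probes in all. Of these regions 832 had a call, with lower calls only in 491, higher calls only in 276 and both in 65. All tested probes were lower in 184 regions and higher in 44. The median SD of the differences within a region was 0.24 and their median range 0.49, and the SD of the region medians was 0.63. Probes of a region share their target and may share sequence, so they are not replicates of the condition. Over all tested regions, 347 held a probe 2-fold lower, 43 a probe 2-fold higher and 1 held both. At least 2 such probes were found in 152 regions for lower and in 9 for higher.

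Regions were joined into 1725 loci where no more than 50 kb lay between neighbours. At least 3 calls of 1 direction from at least 2 regions were found in 183 loci for lower and in 104 for higher, and 15 loci met both conditions. Ranked by the median size of those calls, the first 6 loci are all lower in IRF8-GFP positive LMPP. They were chosen by their calls, so the counts that follow describe them and test nothing.

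The first is chr3:30032959-30133959, with 10 regions and 35 probes over 101 kb. Lower calls were made for 24 of its 30 tested probes, 21 of them shown to be 2-fold or more by a measured fold or a bound, and every one lies in a region with the letter R. The probe with the largest fitted change, in chr3:30032959-30079659 R, was at -1.07 and -0.98 on the negative arrays, against -4.37 and -5.28 on the positive ones. No positive array was above background there, and the negative group was at least 7.84-fold higher (difference -3.80, SE 0.33, limma adjusted p = 0.00308). The R probe with the largest change that was measured on all 4 arrays lies in chr3:30077338-30080281, at -0.39 and -0.27 against -3.49 and -3.16. Its difference was -3.00 (SE 0.14, limma adjusted p = 0.00181), which is 7.99-fold lower in the positive group. Both other probes of that region fell as well, from 0.48 and 0.60 to -2.17 and -1.99 and from 0.35 and 0.37 to -2.47 and -2.31. In each of these probes both negative arrays lie far above both positive arrays.

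The smallest change among the called R probes of the locus was -0.80, from -0.53 and -0.50 to -1.34 and -1.29, in chr3:30099759-30133959. The 1 tested R probe without a call, in chr3:30052149-30052393, was at -2.78 and -2.67 against -5.72 and -3.77, and its positive arrays differed from each other by more than those of its neighbours. For chr3:30100736-30101280 R the levels were -1.31 and -1.71 against -3.94 and -5.01, at least 5.50-fold lower, and that call was lost without the first negative array (limma adjusted p = 0.051). The 5 tested probes with the letter F, from 2 intervals that are also covered on R, gave differences of -0.23 to 0.64, and none was called. The number of lower calls in the locus stayed between 22 and 25 over the 7 other scalings and between 21 and 25 with any 1 array left out. Its sizes moved with normexp, which was run with an offset of 50: the median difference of its tested probes was -0.83 in place of -2.52, and 4 probes were called higher. The offset is larger than the lowest signals well above background, 17.2 to 25.7. Its part in the smaller sizes was not tested.

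At chr9:96632664-96683617, 8 regions over 51.0 kb, 11 of 15 tested probes were lower and 1 was higher. Only 6 were shown to be 2-fold lower by a measured fold or a bound. It holds the largest fitted decrease of all coordinate probes, in chr9:96664617-96683617 R, at -0.73 and -0.71 on the negative arrays, against -5.70 and -5.08 on the positive ones. The positive group was below background and at least 9.69-fold lower (fitted difference -4.67, SE 0.23, limma adjusted p = 0.00186). A brighter probe of that region, at -0.18 and -0.02 against -4.16 and -3.63, gave a higher bound, 13.1-fold, so which of them changed most cannot be told. In chr9:96632664-96653249 R the 3 probes fell from levels between -1.18 and -0.32 to levels between -5.37 and -4.05, all of them below background. They were lower by at least 12.6-fold, 8.39-fold and 7.55-fold. A region that overlaps it on the same strand, chr9:96635508-96654148, had fitted differences of -0.48 to -2.16. The 1 higher call, an F probe of chr9:96664617-96683617, was at -2.99 and -2.90 against -2.48 and -2.59 and differed by 0.41. Over the other scalings 6 to 13 probes of the locus were lower, and its median difference ran from -1.88 to -0.17.

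At chr1:69531191-69570566 all 8 tested probes were lower, and all lie on R. In its longest region the probe with the largest fitted change went from 0.25 and 0.28 to -1.75 and -1.73, and 3 others of that region measured on every array gave -1.88, -1.86 and -1.98. The fifth was below background on the positive arrays, with a fold that is not measured. The 8th, in chr1:69566918-69567447, differed by -0.51, from -2.45 and -2.73 to -2.99 and -3.22. At least 6 of the 8 were lower under each other scaling.

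Lower calls in chr11:96111499-96176029, 6 of 10 tested probes, came from its last 2 regions. The 3 probes of chr11:96175764-96176029 F were at 1.19 and 1.20, 0.57 and 0.50, and 0.29 and 0.20 on the negative arrays. On the positive arrays they were at -1.20 and -1.11, -1.76 and -1.83, and -2.04 and -2.22, so that each fell about equally, by 2.35, 2.33 and 2.37. The neighbouring chr11:96173788-96174352 F held a drop from -2.60 and -2.78 to -5.86 and -5.93, at least 2.48-fold (limma adjusted p = 0.00122), and 2 smaller ones of -0.60 and -0.42. The 4 tested probes of the intervals before these, chr11:96111499-96126224 and chr11:96112907-96125798, differed by -0.32 to 0.32 and none was called.

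The last 2 loci are dimmer. At chr3:146629425-146649125 the 5 tested F probes, of 2 overlapping intervals, fell from levels between -3.73 and -2.61 to levels between -6.25 and -5.12, with no positive array above background. The largest fitted change was at least 2.57-fold (difference -2.96, SE 0.30, limma adjusted p = 0.0038), the bounds of the other 4 were under 2-fold, and the 1 tested R probe differed by -0.07. At chr6:3283191-3349525 all 3 R probes fell. The probe in chr6:3283191-3284581 was at -2.35 and -2.31 against -5.85 and -5.90, at least 3.17-fold lower, and the other of that region, at -3.96 and -3.81 against -6.23 and -6.26, at least 1.08-fold lower. The probe in chr6:3333825-3349525 was at -0.64 and -0.62 against -2.94 and -3.10, a difference of -2.39 that was measured on all 4 arrays. The lower calls at chr3:146629425-146649125 ranged from 2 to 5 over the other scalings, and those at chr6:3283191-3349525 from 3 to 4. With normexp the median difference over their tested probes was -0.21 and -0.52, and at the chromosome 11 and chromosome 1 loci it was -0.097 and -1.14.

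**Figure D4:**
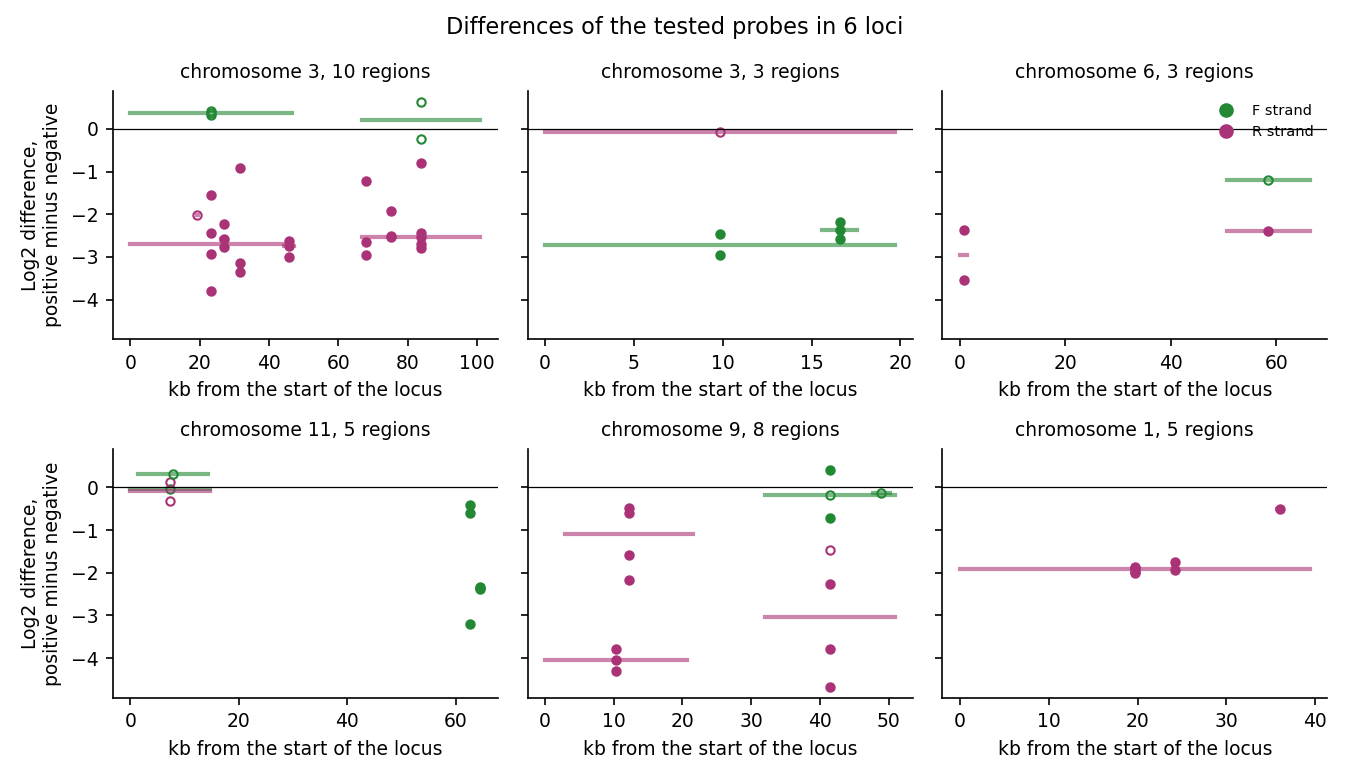
Log2 difference (vertical axis, positive minus negative) of the tested probes in the 6 loci with the largest fitted lower calls, against distance in kb from the start of the locus (horizontal axis). Each bar spans a region at the median of its tested probes and each point is a probe, drawn at the middle of its region because probe positions were not used, with F in green, R in purple and open points for probes not called. On chromosome 3 (10 regions) the purple points lie at -0.80 to -3.80 and the green ones at -0.23 to 0.64.

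Outside these loci, 1 of the 10 largest fitted decreases remained, in chr7:108246261-108247836 F. Its probe was at -2.88 and -2.90 on the negative arrays, against -5.87 and -6.31 on the positive ones, at least 2.16-fold lower (difference -3.20, SE 0.17, limma adjusted p = 0.00195). The other 2 probes of the region fell too, by 1.62, from -1.70 and -1.67 to -3.16 and -3.45, and by 2.57, from -0.77 and -1.91 to -4.12 and -3.70. The probes chosen by this rule in chr3:30064327-30064680 R, chr3:30100736-30101280 R and the other regions of the loci above make up the remaining 9. In chr3:30064327-30064680 R the levels were -2.48 and -2.57 against -5.96 and -5.81, at least 2.77-fold lower.

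The fitted increases were smaller, and 3 of the 10 largest lie close together on chromosome 2. In chr2:128137419-128141735 R all 3 probes were higher in IRF8-GFP positive LMPP. The largest fitted change was from -6.44 and -4.64 to -3.20 and -2.85, with both negative arrays below background and an increase of at least 3.09-fold (difference 2.51, SE 0.65, limma adjusted p = 0.0349). The negative arrays of this probe differed from each other by more than the positive ones, and the call was lost without either positive array, with scaling on probes detected on all arrays, with spike-in scaling and with no filter. Its region's other probes rose from -4.78 and -4.54 to -2.61 and -2.42 (limma adjusted p = 0.00213) and from -3.66 and -3.51 to -2.71 and -2.08 (limma adjusted p = 0.0182). The first of these was 4.43-fold higher by the fit, but only 1 of its negative arrays was above background, so that fold is not fully measured. In chr2:128142035-128142481 R, the next region on that strand, 2 of 3 probes were tested and both were higher. The larger change was from -6.20 and -5.65 to -3.41 and -3.55, at least 2.33-fold (difference 2.45, SE 0.21, limma adjusted p = 0.00305). In chr2:128249388-128250301 F, 1 probe rose from -3.82 and -4.29 to -2.39 and -2.65, which is 2.90-fold, while the other tested probe of the region was at -3.62 and -4.26 against -4.002 and -4.975 and was not called. The locus that holds these regions, chr2:127988295-128250301, had 10 of 15 tested probes higher and none lower. The smallest of the 10 differences, 0.29 in chr2:128217275-128217972 R, came from a probe above background on both negative and on no positive array. Under the other scalings 6 to 11 probes of the locus were higher. With any 1 array left out the calls were 6 or 7, the fewest without the second negative array.

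In chr17:32213027-32228368 R, 3 of 3 probes rose. They went from -1.52 and -1.49 to -0.12 and 0.00, from -0.08 and -0.04 to 1.29 and 1.39, and from -1.45 and -1.53 to -1.03 and -1.20. The first, 2.72-fold higher, had a difference of 1.45 (SE 0.072, limma adjusted p = 0.0019). In chr2:119697845-119719245 F, 3 of 3 tested probes rose, by 1.48, 1.28 and 1.16, the first from -4.22 and -3.65 to -2.45 and -2.47. Both probes of chr4:21683562-21694350 R rose, from -2.48 and -2.33 to -1.05 and -0.97 and from -3.41 and -3.12 to -2.29 and -2.13. All 4 arrays were above background in each, and the groups did not overlap.

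The other regions with a large increase were less uniform. In chr16:59557120-59602070 R, 4 of 7 tested probes were higher, the largest from -2.99 and -2.83 to -1.45 and -1.58, while a probe at 0.76 and 0.68 against 0.77 and 0.82 was not called. The smallest of the 4 differences, 0.43, came from a probe above background on both negative and on no positive array. In chr5:106982442-107045717 F the probe at -6.00 and -4.87 against -3.54 and -3.40, at least 2.35-fold higher, was the 1 call among 4 tested. At chr9:14460976-14488051 the R probe rose from -4.72 and -4.74 to -3.17 and -3.56, at least 2.52-fold. Its F partner of the same interval had 5 tested probes, all higher, the brightest from 4.20 and 4.20 to 5.24 and 5.31. In chr15:66684765-66685491 F the 1 tested probe rose from -5.40 and -4.83 to -3.74 and -3.79, at least 1.91-fold.

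Opposite strands of the same interval often behaved differently. Probes exist for both letters in 1067 of the 3543 intervals. Both strands had a tested probe in 590 intervals (55.3%), 1 strand in 371 (178 F and 193 R) and neither in 106. Of the 590, calls ran in opposite directions in 79, were higher on both strands in 75 and lower on both in 42. Only 1 strand had calls in 255, neither had in 81, and in 58 a single strand held calls of both directions. The strand medians had the same sign in 53.6% of the 590 and differed by 0.39 in the median and by more than 1 in 92. The counts of opposite calls ran from 31 to 91 over the other scalings, those of higher calls on both strands from 9 to 202 and those of lower calls on both from 9 to 123.

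**Figure D5:**
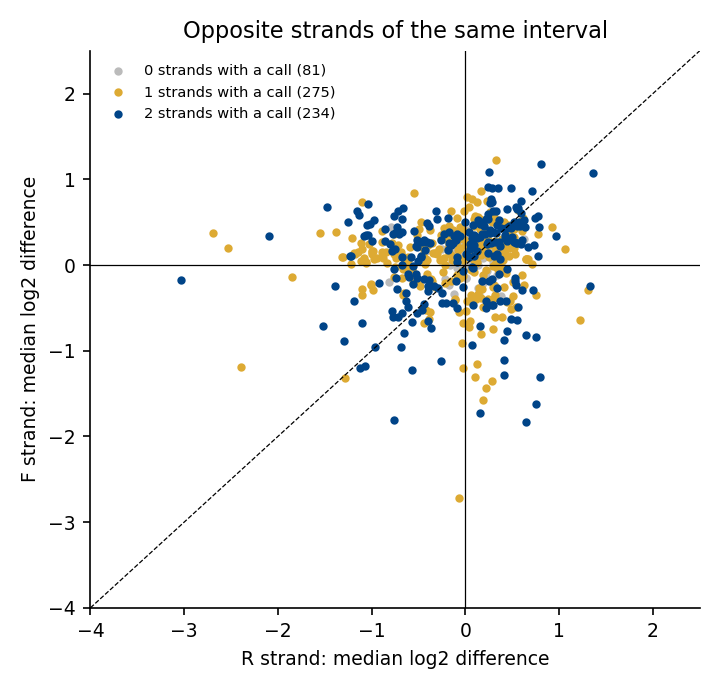
Median log2 difference (positive minus negative) of the F strand (vertical axis) against that of the R strand (horizontal axis) for 590 intervals with tested probes on both. Each point is 1 interval, coloured by the number of strands with a call, and the dashed line marks equal differences. Many points lie near an axis and away from the dashed line, and 92 differ by more than 1.

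The largest differences between strands were chosen for their fitted size and are a description, and several rest on a positive group below background. In chr3:30032959-30079659 a F probe near the median was at -4.11 and -3.98 against -4.16 and -3.19, and a R probe at -0.64 and -0.59 against -3.67 and -3.44. The strand medians were 0.37 and -2.69. Medians were 0.20 for F and -2.53 for R in chr3:30099759-30133959, -0.17 and -3.03 in chr9:96664617-96683617 and 0.34 and -2.10 in chr4:128060015-128075590. The last R value is 1 probe with no positive array above background, bounded at 1.18-fold lower, and 3 of the 4 R probes on chromosome 9 were likewise below background on the positive arrays. In chr3:146629425-146649125 the sides were turned, with -2.71 for F, below background on the positive arrays, and -0.07 for R. Calls in opposite directions on all tested probes were found in chr4:146507925-146532650. Its 3 F probes were lower, the median one from -3.75 and -3.70 to -5.97 and -5.14, which is below background on both positive arrays and only at least 1.21-fold lower (limma adjusted p = 0.011). Its 5 R probes were higher, the median one from 1.95 and 2.03 to 2.58 and 2.70 (difference 0.65, SE 0.075, limma adjusted p = 0.00508).

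In the brightest quartile of all tested probes 64.7% were called higher, with a median difference of 0.37. Positive differences are therefore common among bright probes of any kind. The 8 coordinate probes with the highest mean signal all had a positive difference, from 0.24 to 0.93. The largest difference was in chr17:48068261-48087905 F, at 7.31 and 7.29 on the negative arrays, against 8.31 and 8.13 on the positive ones. It was 0.93 (SE 0.085, limma adjusted p = 0.00335), 1.90-fold higher, and its call was kept under all 17 alternative fits. In chr17:17481706-17482457 R the 4 arrays gave 8.02 and 8.003 against 8.61 and 8.59, a difference of 0.59 whose call was lost with quantile normalization, cyclic loess and in the deposited matrix. Differences of 0.42, 0.40, 0.39 and 0.37 were called in chr11:22681800-22707775 R, chr6:116092274-116144199 F, chr7:108209996-108216032 R and chr3:87757295-87774970 F, and each turned negative with cyclic loess and lost its call without either negative array. The probes of this list in chr17:39982023-39983277 F (0.24) and chr14:78924115-78938125 F (0.33) were not called. Their sign turned with quantile normalization, cyclic loess and in the deposited matrix, and for the first also with spike-in scaling. The other 2 probes of chr17:39982023-39983277 F were called higher, by 0.27 and 0.22.

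Noncoding RNA genes with a name were followed on accession probes as a yardstick. Of 50 listed, 27 were matched to a probe, 20 were tested and 7 were below the filter. Calls were higher for 5, lower for 8 and absent for 7, with a median difference of -0.07. Over all tested probes 35% were higher and 22% lower, with a median difference of 0.14. Meg3, a maternally expressed imprinted RNA with 1 of 3 probes tested, was at -2.18 and -2.22 on the negative arrays, against -4.90 and -4.63 on the positive ones, where it was below background, at least 3.47-fold lower (limma adjusted p = 0.00171). Neat1, the scaffold of nuclear paraspeckles, fell from 3.51 and 3.51 to 2.42 and 2.31, and Malat1, an abundant RNA of nuclear speckles, from 1.90 and 1.85 to 1.12 and 1.17. Kcnq1ot1, an imprinted antisense RNA, fell by 0.66, and Jpx, an activator of Xist, by 0.80, a call that was lost with normexp. Snhg3, a host gene of small nucleolar RNA, rose by 0.63, from 3.94 and 4.002 to 4.54 and 4.66. The differences of Pvt1 (0.56) and Crnde (0.49) were called, but that of Pvt1 was lost without either negative array or with spike-in scaling, and that of Crnde under 9 of 17 alternative fits.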

How the data were processed

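Per the labels' protocols, cells were sorted, RNA was extracted with a micro column kit and labelled with Cy3 by a low-input kit. The deposited scanner files hold spot intensity values from Agilent Feature Extraction 10.7.3.1, background-subtracted but not scaled between arrays, with build mm9 per the file headers. The deposited matrix holds intensity values that appear quantile normalized, judging from the values, with unstated centring. The 4 arrays share 1 slide and 1 scan day. Control and outlier spots were left out, spots of a probe averaged, and log2 signals set to the array's 75th percentile over 55669 probes. Probes well above background on both arrays of at least 1 group (30478) were fitted with limma 3.58.1 (lmFit, eBayes, no trend, R 4.3.3), two-sided, with Benjamini-Hochberg adjustment at 0.05. The prior SD was 0.0788. The number of arrays limits the precision.

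Where no array of the dimmer group was above background, "at least N-fold" compares the mean of the brighter group with a floor for the dimmer one, namely each array's lowest signal well above background, or the probe's value where that is higher, averaged over its arrays. Named are, 1 probe per region, the 10 largest increases and 10 largest decreases whose groups do not overlap, the 8 brightest, 6 strand pairs, 6 loci, the gate genes and 8 noncoding genes. Genes were named through RefSeq accessions (GRCm38.p6), which gave 1 symbol to 26756 probes and to no coordinate probe. Members, lists and rules were chosen with earlier results of these data known. Same-numbered arrays deviated together with a correlation of 0.083, over 2 pairs, so numbers were not taken to pair samples. The script was tested on simulated data, in which far fewer probes changed than were called here. It called 0 of 50 changes of 0.5 log2, 29 of 50 of 1 log2, 45 of 50 of 2 log2 and 48 of 50 of 3 log2. A probe without a call can therefore still have changed. Alternatives were other scalings, background correction (normexp with an offset of 50), filters, eBayes options, thresholds, the brightest probe per region, a replicate block and each array left out. 1 marker gene is not reported here by itself.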

Additional observations from a re-analysis of the deposited data

How the results depend on the processing

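Each array was left out in turn, in which case the lone array was assumed to vary like the other group. This gave 416 to 1291 coordinate probes higher and 1072 to 2079 lower, and a median difference of -0.044 to 0.0050. With the replicate block the counts were 1432 and 1868, against 1223 and 1873. Normexp gave 2350 coordinate probes higher and 995 lower, with 10 and 90 at 2-fold and a median of 0.16. Of all tested probes, 12987 were higher and 4641 lower with normexp. Scaling on probes detected on all arrays gave 416 coordinate probes higher, 19 and 958 at 2-fold and a median of -0.25. Spike-in scaling gave 274 higher and 2858 lower, 15 and 1145 at 2-fold and a median of -0.32. Centring on the tested probes put the median at 0.024. Without a filter 5147 were higher and 1824 lower, 412 and 673 at 2-fold, with a median of 0.36 over coordinate probes and over all probes. Requiring all 4 arrays left 1396 higher and 1410 lower, 37 and 280 at 2-fold and a median of 0.078. The brightest probe per region left 687 higher and 657 lower, 26 and 171 at 2-fold, and a median of 0.10. An adjusted p of 0.01 left 400 higher and 1101 lower. For these settings the cause of the shift was not tested, except that the stricter filter and 1 probe per region test fewer probes. The flag for a positive and significant signal marked 10706 coordinate probes on both negative and 9769 on both positive arrays, against 6622 and 5106 well above background.

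Differences turned negative with cyclic loess in chr11:22681800-22707775 R (-0.068), chr7:108209996-108216032 R (-0.098), chr6:116092274-116144199 F (-0.071) and chr3:87757295-87774970 F (-0.089). In chr17:39982023-39983277 F they were -0.15 with quantile normalization, -0.25 with loess, -0.072 with spike-in scaling and -0.15 in the deposited matrix, and in chr14:78924115-78938125 F -0.066, -0.14 and -0.068 with quantile normalization, loess and the matrix. Cd34 was at -0.14, -0.21, -0.045 and -0.14 and Flt3 at -0.22, -0.17, -0.058 and -0.23 with quantile normalization, loess, spike-in scaling and the matrix. The cause was not tested. Signal over background limits the dim probes: 8655 of 16191 were detected on no array.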

Other observations

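By chromosome, the share of tested coordinate probes 2-fold lower by the fitted fold in IRF8-GFP positive LMPP ran from 4.40% on chromosome 8 (19 of 432) to 16.9% on chromosome 3 (57 of 337). Of the 57 on chromosome 3, 22 lie in chr3:30032959-30133959 and 5 in chr3:146629425-146649125. Chromosome 16 followed with 14.9% (32 of 215) and chromosome 19 with 14.5% (22 of 152). The share 2-fold higher was largest on chromosome 9, at 2.85%, from 7 probes, 6 of which lie in chr9:14460976-14488051.

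Loci with higher calls were ranked in the same way after their values were seen, and the first, on chromosome 2, is given above. At chr8:82836971-82919089 all 6 tested probes, of 2 regions on R, were higher, with differences of 0.96 to 1.21, and all 6 stayed called under the 7 other scalings and with any 1 array left out. In chr8:82836971-82849309 the brightest of them was at 2.46 and 2.53 on negative arrays, against 3.52 and 3.53. At chr14:22267795-22319045 the F strand had 5 of 7 tested probes higher, by 0.90 to 1.02, while another F probe, at 2.86 and 2.62 against 2.73 and 2.49, was not called.

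The 3 intervals without a strand letter differed. In chr17:12941161-12944859 all 5 probes were lower, by 0.43 to 1.37, the median one from -1.81 and -1.73 to -2.68 and -3.18 (limma adjusted p = 0.0105). No probe of chr3:34856791-34869544 (3 probes) or chr6:52032838-52033444 (5 probes) passed the filter.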
